A study of Homo sapiens with 20 samples.

Results

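The miRNAs described here are miR-4521, miR-1260a, miR-1260b, miR-4286, miR-7706, miR-4454, miR-664a-3p and miR-1275, which are 8 of the 2588 mature miRNAs counted in 20 small RNA libraries of human cells. They were chosen by name as miRNAs that are absent from the usual lists of DROSHA-independent miRNAs or that resemble tRNA or snoRNA fragments, and that were higher with DROSHA-p140 than with full-length DROSHA or remained when DROSHA was missing. Their values in the p140 comparisons and in the knockout against wild type therefore chose them, and are given below as a description with no test. The serum comparison was not used for the choice. The comparison of the lines and of rescued with wild-type cells was not used either, but both contain libraries that were.

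DROSHA is the nuclear RNase III enzyme that cuts the hairpin of a canonical miRNA out of its primary transcript, and a cell without it loses most of its miRNAs. A few small RNAs that are counted as miRNAs reach the cytoplasm by other routes, such as a spliced intron (a mirtron), a capped hairpin at a transcription start, a snoRNA, or the end of a tRNA precursor. A tRNA precursor is cut by RNase Z at the 3′ end of the tRNA, which releases a short trailer that ends in the run of U at which RNA polymerase III stops, and the mature tRNA then receives the bases CCA.

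The groups, as the labels give them, were DROSHA knockout HCT116 cells expressing GFP (1 library), DROSHA knockout HCT116 cells rescued with DROSHA-p140 (3 libraries) or full-length DROSHA (3), wild-type HCT116 cells with no treatment (1), wild-type HCT116 cells kept for 72 hr in 0.1% fetal bovine serum (FBS; 3) or 9.1% FBS (3), and DROSHA knockout HEK293E cells rescued with DROSHA-p140 (3) or full-length DROSHA (3). HCT116 is a human colon cancer line, HEK293E a line from human embryonic kidney, and DROSHA-p140 a shorter form of the enzyme. The labels do not say whether a knockout line was 1 clone or whether replicates were separate cultures, so p-values reflect the spread among the libraries of a group alone, and that spread may be technical. Levels are CPM, that is reads scaled to a common total of miRNA reads per library, and intervals and floors cover counting error only.

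Libraries held 38288 reads (knockout with GFP) to 2822317 reads (0.1% FBS, replicate 3). A precision limit follows from this, since 3 reads, taken as the floor, correspond to 78.4 CPM in the knockout with GFP and to 1.06 CPM in the deepest library. The epithelial miRNAs miR-200c-3p, miR-141-3p, miR-192-5p and miR-194-5p were fixed as markers of HCT116. They summed to 260 to 487 CPM in the rescued HCT116 libraries, against 30572 to 38464 CPM in the wild-type ones. Against 9.1% FBS, the gap came mainly from miR-200c-3p and miR-141-3p. With full-length DROSHA these had means of 180 and 74.4 CPM, against 19727 and 12234 CPM in 9.1% FBS. In that comparison miR-192-5p was similar (51.2 against 54.2 CPM) and miR-194-5p higher (164 against 116 CPM). With p140, miR-192-5p had a mean of 13.7 CPM and miR-194-5p of 139 CPM. The rescued HCT116 libraries thus did not carry the miR-200c-3p and miR-141-3p level of their line. The knockout with GFP had 4100.5 CPM of the summed HCT116 markers, with miR-192-5p at 0 reads. The HEK293E markers (miR-218-5p, miR-10b-5p and miR-196a-5p) summed to 43674 to 92440 CPM in HEK293E libraries and to 366 to 2280.1 CPM in HCT116 libraries. Replicate 3 stood apart from replicates 1 and 2 in the rescued HCT116 groups and in both serum groups.

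The sequences are shown for their lengths, seeds and 3′ ends, of which some are shared by a part of the members. RefSeq (GRCh38.p14) gave the mature sequence of 7 of the 8, printed from 5′ to 3′ with the seed, bases 2 to 8, in capitals.
miR-4521: gCUAAGGAaguccugugcucag
miR-1260a: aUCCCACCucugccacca
miR-1260b: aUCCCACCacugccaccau
miR-4454: gGAUCCGAgucacggcacca
miR-7706: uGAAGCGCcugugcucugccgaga
miR-664a-3p: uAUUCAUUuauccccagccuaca
miR-1275: gUGGGGGAgaggcuguc

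The mature forms are 17 to 24 nt long. The seed of miR-1260a is also that of miR-1260b, and these sequences differ by U9A, with the base of miR-1260a first and positions counted from the 5′ end, and by 1 more U at the end of miR-1260b. Reads of the pair that carry neither difference cannot be told apart, and miR-1260a and miR-1260b are reported with that limit. miR-1260a, miR-1260b and miR-4454 end in CCA or CCAU, the letters at the end of a mature tRNA. In the RefSeq table, 55 of 2370 mature miRNAs (2.321%) end so. The rule by which reads mapping to several places, such as tRNA genes, were counted is not given in the sources used here.

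On GRCh38, miR-4521 lies at chr17:8186948-8186969 (+), with no gene on either strand other than its own hairpin in the gene models used. The tRNA gene TRS-GCT4-3, a serine tRNA, occupies chr17:8186866-8186947, and the gene table used gives no strand for it. The first base of miR-4521 is base 1 after the last base of the tRNA gene, and its last is base 22. Bases 23 to 26 are a run of 4 U. The hairpin at chr17:8186945-8187004 is printed to show this, with the mature miRNA in capitals and its first 3 bases lying within the tRNA gene.
MIR4521 hairpin: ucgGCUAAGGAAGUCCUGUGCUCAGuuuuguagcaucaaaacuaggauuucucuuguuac

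**Figure D1:**
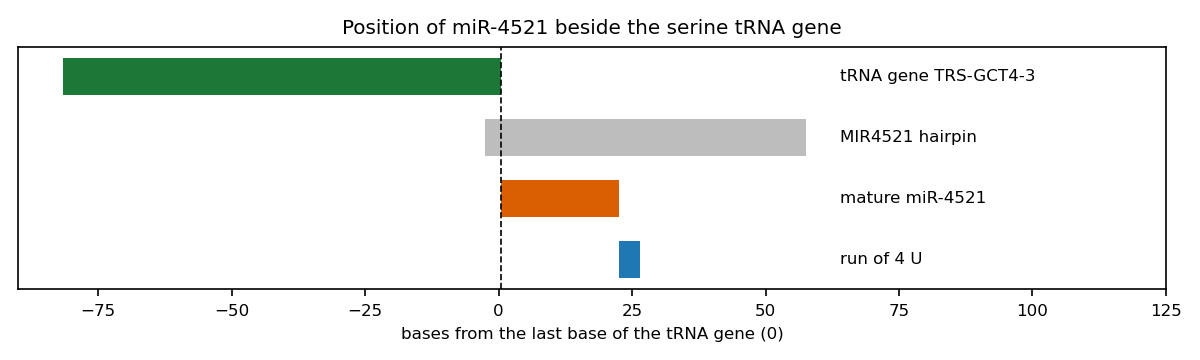
Position of the mature miR-4521, its annotated hairpin and a run of 4 U relative to the end of the neighbouring serine tRNA gene (x axis, bases from the last base of the tRNA gene). The mature miRNA fills bases 1 to 22 after the tRNA gene and the U run follows at bases 23 to 26.

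Of the others, miR-664a-3p (chr1:220200549-220200571, −) lies within SNORA36B, an H/ACA snoRNA encoded in an intron of RAB3GAP2, and its sequence was found in the SNORA36B transcript. miR-7706 (chr15:85380639-85380662, +) lies in the untranslated part of an AKAP13 exon, AKAP13 being a scaffold protein that anchors protein kinase A. Of 6 annotated AKAP13 transcript starts near it, a pair lies 25 and 9 bases before its hairpin, 1 lies inside the hairpin and 3 lie beyond it. miR-1260a (chr14:77266231-77266248, +) is opposite a UTR exon of the neuroglobin gene NGB, and miR-1260b (chr11:96341447-96341465, +) is opposite an exon of MAML2, a coactivator of Notch. miR-4286 is opposite an intron of the photoreceptor gene RP1L1. miR-4454 (chr4:163093607-163093626, −) and miR-1275 (chr6:34000018-34000034, −) are intergenic.

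miR-4521, which lies beside the tRNA gene, had the highest mean of the 8 in every group. It had 30244 CPM in knockout HCT116 cells with GFP, against 749 CPM in untreated wild-type cells. With p140 the HCT116 libraries had 10237, 11397 and 5315 CPM, against 1962, 1901 and 1859 CPM with full-length DROSHA. With p140 the HEK293E libraries had 45179, 25005 and 17788 CPM, against 13444, 12123 and 12591 CPM with full-length DROSHA. Every p140 library was thus above every full-length library of its line, and replicate 3 was the lowest of the p140 libraries in both lines. In wild-type HCT116 cells the level was 402, 375 and 233 CPM in 0.1% FBS, against 2142, 1469 and 1372 CPM in 9.1% FBS. By group means the order was knockout with GFP, HEK293E with p140, HEK293E with full-length, HCT116 with p140, HCT116 with full-length, 9.1% FBS, untreated wild type and 0.1% FBS. Neighbours in that order overlapped only between the knockout with GFP and HEK293E with p140, and between HCT116 with full-length and 9.1% FBS.

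The lower-level relative miR-1260a is best given in reads. It had 4 reads in the knockout with GFP and 0 in untreated wild type, where a count of 0 allows up to 3.50 CPM. HCT116 libraries had 2, 3 and 3 reads with p140 and 7, 3 and 7 with full-length DROSHA. HEK293E libraries had 14, 31 and 33 reads with p140 and 30, 24 and 29 with full-length. miR-1260a was near the floor in every rescued HCT116 library and well above it in HEK293E. In wild-type HCT116 cells it had 13, 12 and 10 reads in 0.1% FBS and 3, 3 and 6 reads in 9.1% FBS.

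miR-1260b was the more abundant of the pair in every library. It had 7339 CPM in the knockout with GFP, against 135 CPM in untreated wild type. HCT116 libraries had 1433, 2071 and 1572 CPM with p140, against 369, 312 and 496 CPM with full-length DROSHA. HEK293E libraries had 10919, 8999 and 9768 CPM with p140, against 7759, 9024 and 6724 CPM with full-length. The HCT116 groups did not overlap and the HEK293E groups did. In 0.1% FBS it had 314, 233 and 255 CPM, against 212, 296 and 274 CPM in 9.1% FBS, which overlapped. The order of means was HEK293E with p140, HEK293E with full-length, the knockout with GFP, HCT116 with p140, HCT116 with full-length, 0.1% FBS, 9.1% FBS and untreated wild type. Neighbours overlapped between the HEK293E groups, between HEK293E with full-length and the knockout with GFP, between HCT116 with full-length and 0.1% FBS, and between the serum groups.

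The levels of miR-4286 were 1515 CPM in the knockout with GFP and 23.3 CPM in untreated wild type. HCT116 libraries had 283, 514 and 171 CPM with p140, against 79.4, 69.8 and 65.4 CPM with full-length DROSHA. HEK293E libraries had 2887, 2614 and 2374 CPM with p140, against 1891, 3074 and 1599 CPM with full-length. p140 and full-length libraries were apart in HCT116 and overlapped in HEK293E. In 0.1% FBS the level was 48.7, 40.0 and 39.0 CPM, against 14.9, 26.2 and 22.3 CPM in 9.1% FBS, so that all starved libraries were above all libraries in full serum. Only the HEK293E groups, and the untreated and 9.1% FBS groups, overlapped among neighbours in the order of means.

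miR-7706, in an AKAP13 exon, was highest in the knockout with GFP with 3526 CPM, against 26.8 CPM in untreated wild type. HCT116 libraries had 999.6, 991 and 358 CPM with p140, against 222, 267 and 162 CPM with full-length DROSHA. HEK293E libraries had 1036, 1339.7 and 1227.6 CPM with p140, against 807, 1078 and 566 CPM with full-length. Again the HCT116 groups did not overlap and the HEK293E groups did. Wild-type HCT116 cells had 20.4, 26.0 and 15.9 CPM in 0.1% FBS, against 22.3, 21.4 and 18.7 CPM in 9.1% FBS. Every library of knockout origin was thus well above every wild-type library.

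miR-4454, which ends in CCA, had 444 CPM in the knockout with GFP (17 reads), against 21.0 CPM in untreated wild type (18 reads). HCT116 libraries had 228, 373 and 156 CPM with p140, against 74.4, 73.3 and 73.3 CPM with full-length DROSHA. HEK293E libraries had 341, 551 and 427 CPM with p140, against 245, 575 and 339 CPM with full-length. The HEK293E groups overlapped, whereas the rescued HCT116 groups did not. Wild-type cells had 10.8, 16.5 and 14.5 CPM in 0.1% FBS, against 25.8, 18.7 and 9.34 CPM in 9.1% FBS, with the starved libraries inside the range of the others.

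The snoRNA-derived miR-664a-3p had 653 CPM in the knockout with GFP, against 28.0 CPM in untreated wild type. HCT116 libraries had 326, 183 and 149.8 CPM with p140, against 68.1, 65.2 and 77.2 CPM with full-length DROSHA. HEK293E libraries had 1036, 962 and 772 CPM with p140, against 615, 1013 and 548 CPM with full-length. The other arm of the hairpin, miR-664a-5p, had 5 to 31 reads per library, against 24 to 236 reads of the 3p arm. In wild-type cells miR-664a-3p had 35.6, 42.9 and 34.7 CPM in 0.1% FBS, against 39.0, 27.8 and 25.4 CPM in 9.1% FBS. The serum groups overlapped by 1 library of 9.1% FBS.

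Intergenic miR-1275 had 1410.4 CPM in the knockout with GFP, against 31.5 CPM in untreated wild type. HCT116 libraries had 593, 553 and 199 CPM with p140, against 141, 111 and 48.4 CPM with full-length DROSHA. HEK293E libraries had 666, 1437 and 1041 CPM with p140, against 361, 695 and 691 CPM with full-length. Replicate 3 was the lowest in both rescued HCT116 groups. In 0.1% FBS it had 20.9, 16.5 and 13.1 CPM, against 33.8, 35.8 and 29.6 CPM in 9.1% FBS, with no overlap.

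**Figure D2:**
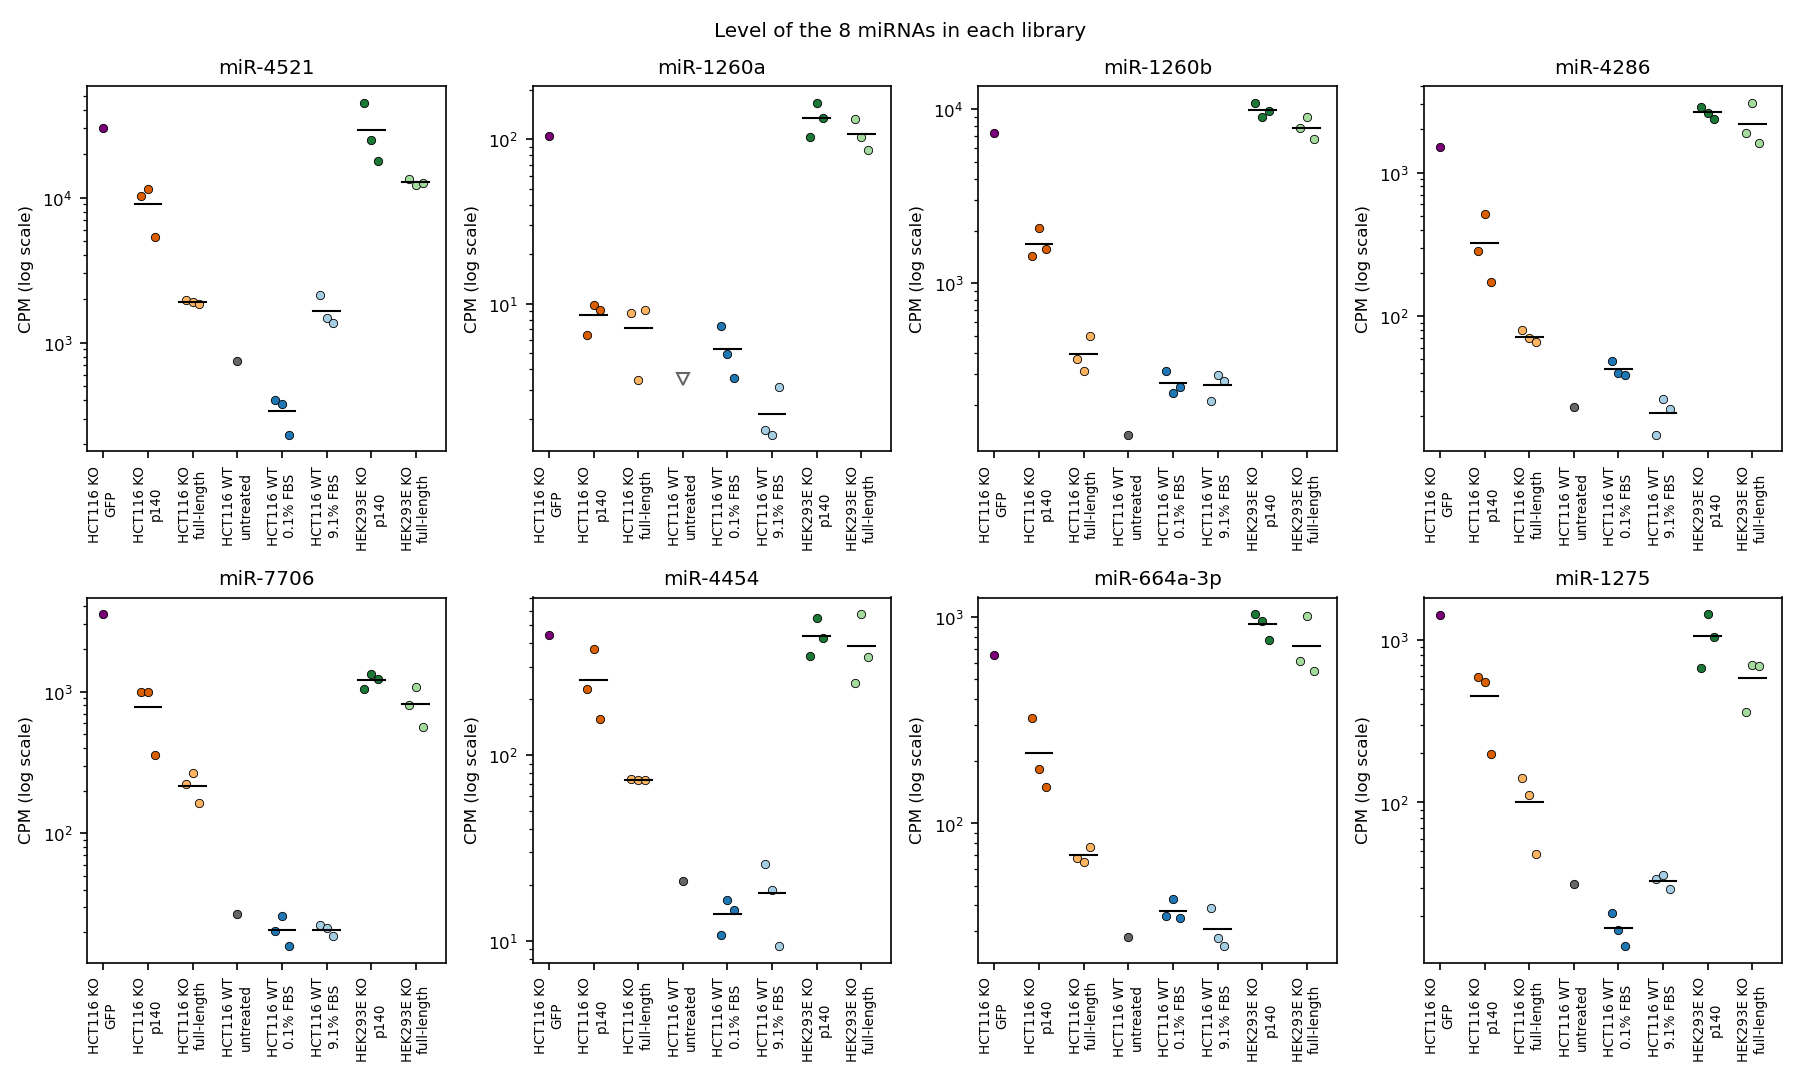
Level of each of the 8 miRNAs in every library (y axis, CPM on a log scale that differs between panels), with 1 point per library and a bar at the group mean, and an open triangle at the floor of 3 reads where a library had 0. The knockout with GFP and the HEK293E groups are the highest in every panel, and miR-4521 is lowest in the 0.1% FBS libraries.

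Together the 8 miRNAs took 4.52% of the miRNA reads in the knockout with GFP, against 0.102% in untreated wild type. In rescued HCT116 cells they took 1.27 ± 0.426% in p140 libraries and 0.284 ± 0.00747% in full-length libraries, and in HEK293E cells 4.56 ± 1.48% in p140 libraries and 2.54 ± 0.227% in full-length libraries (SD, n = 3 each). In wild-type HCT116 cells their share was 0.0741 ± 0.0126% in 0.1% FBS and 0.205 ± 0.0391% in 9.1% FBS (SD, n = 3 each). miR-4521 alone supplied between 38.2% and 86.0% of the members' reads in a library. The lowest share of miR-4521 was in 0.1% FBS (38.2 to 49.7%), and the highest in 9.1% FBS (77.4 to 86.0%).

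Without DROSHA the members took a far larger part of the library than in wild type. This comparison has 1 library per group, was used for the choice, and is a description of these libraries only. miR-7706 had a CPM ratio of 131 (95% interval 84.0 to 214), miR-4286 of 64.9 (38.5 to 113.9), miR-1260b of 54.2 (43.5 to 67.9), miR-1275 of 44.8 (27.7 to 73.9) and miR-4521 of 40.4 (36.6 to 44.5). The smallest ratios were 23.3 for miR-664a-3p (12.8 to 42.6) and 21.1 for miR-4454 (10.2 to 43.5). All 7 members with at least 10 reads in either library thus had a ratio of 10 or more, against 16.6% of all 434 miRNAs with such depth, whose median ratio was 1.32. The canonical oncogenic miR-21-5p had a ratio of 0.140 and the tumour suppressor let-7a-5p one of 0.153.

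A ratio of CPM is relative to a library whose other miRNAs are missing, and the members were therefore also set against a list of 27 mature miRNAs made without DROSHA. The list holds the miR-320 family, miR-484, miR-3615 and mirtron-type hairpins such as miR-877 and miR-1226, and no member. It took 76.2% of the reads in the knockout with GFP, against 1.39% in untreated wild type. miR-320a alone supplied 23416 of the 29186 list reads in the knockout with GFP and 10185 of 11891 in untreated wild type. The list scale therefore follows mainly miR-320a and is no even average of the list. Per list read, the log2 ratio of the knockout to wild type was 1.26 for miR-7706, 0.24 for miR-4286, -0.02 for miR-1260b, -0.30 for miR-1275 and -0.44 for miR-4521. It was -1.24 for miR-664a-3p and -1.38 for miR-4454. By the same measure, miR-320b had -0.37, the lowest value of the list miRNAs that reached 10 reads in 1 library and had some in both, miR-320a had -0.09, miR-877-5p 1.67 and miR-1229-3p 3.06, the highest. The point values of miR-4521, miR-664a-3p and miR-4454 thus lay below all of these and the other 4 named members within their range. The CPM-ratio intervals of miR-4521, miR-664a-3p and miR-4454 overlapped that of miR-320b (38.1 to 47.2), so the counts do not settle this order. miR-21-5p was far lower, with -8.62.

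With p140 in place of full-length DROSHA, the members were higher in HCT116 cells by similar amounts. The log2 fold changes from edgeR, scaled by TMM (a trimmed mean of ratios over all miRNAs) and given ± SE, were 2.18 ± 0.30 for miR-4521, 2.11 ± 0.43 for miR-4286, 2.11 ± 0.52 for miR-1275 and 2.02 ± 0.26 for miR-1260b. They were 1.80 ± 0.43 for miR-7706, 1.71 ± 0.37 for miR-4454 and 1.57 ± 0.35 for miR-664a-3p (n = 3 libraries each). miR-1260a had too few reads to be fitted. For 7 of the 8 members p140 and full-length libraries were apart in CPM, as they were for 65.7% of the 446 miRNAs fitted, and this contrast chose the members. The epithelial markers summed to 260 to 352 CPM with p140 and 445 to 487 CPM with full-length, and their part in the result was not tested. The median of the 7 members fitted was 2.02, and that of the 19 fitted miRNAs of the DROSHA-independent list was 1.78, against -0.11 over all 446.

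In HEK293E cells the same contrast gave smaller values. miR-4521 had 1.28 ± 0.28, miR-1275 0.95 ± 0.32 and miR-7706 0.65 ± 0.24, and the other members 0.29 to 0.44 (n = 3 libraries each). miR-4521 was the only member whose groups did not overlap, against 38.9% of 416 miRNAs. The median of the 8 members was 0.43, that of 16 miRNAs of the DROSHA-independent list 0.62, and that of all 416 miRNAs -0.04. The blood-cell markers summed to 111 to 281 CPM with p140 and 455 to 953 CPM with full-length, with miR-223-3p at 0 in all 6 libraries. The HEK293E markers summed to 43674 to 51519 CPM with p140 and 77641 to 92440 CPM with full-length. Of these, miR-218-5p (mean 40923 against 74670 CPM) and miR-196a-5p (1101 against 5042 CPM) were lower with p140. miR-10b-5p went the other way (6008 against 5158 CPM), with overlapping groups. The part of the blood-cell and HEK293E markers in the result was not tested. Whether the p140 effect differs between the lines was not tested for the members.

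On the scale of the DROSHA-independent list, p140 and full-length libraries overlapped in HCT116 cells for every member but miR-1275. miR-1275 was narrowly apart, with 2.58, 2.67 and 2.59 reads per 1000 list reads with p140, against 2.55, 2.19 and 1.60 with full-length DROSHA. miR-4521 had 44.5, 55.0 and 69.3 reads per 1000 list reads with p140, against 35.5, 37.5 and 61.2 with full-length DROSHA, 39.7 in the knockout with GFP and 54.0 in untreated wild type. Here replicate 3 was the highest of each rescued group, where it was the lowest in CPM, and the groups overlapped. In the serum groups miR-4521 moved further, with a mean of 146 in 9.1% FBS and 24.7 in 0.1% FBS. miR-7706 had 4.34, 4.78 and 4.66 reads per 1000 list reads with p140, against 4.01, 5.25 and 5.35 with full-length, 4.63 in the knockout with GFP and 1.93 in untreated wild type. All 7 libraries of knockout origin lay between 4.01 and 5.35, whereas the serum libraries had 1.40 to 1.67 in 0.1% FBS and 1.68 to 2.00 in 9.1% FBS. miR-4454 had 0.58 in the knockout with GFP, against 1.51 in untreated wild type, and miR-664a-3p had 0.86 against 2.02.

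**Figure D3:**
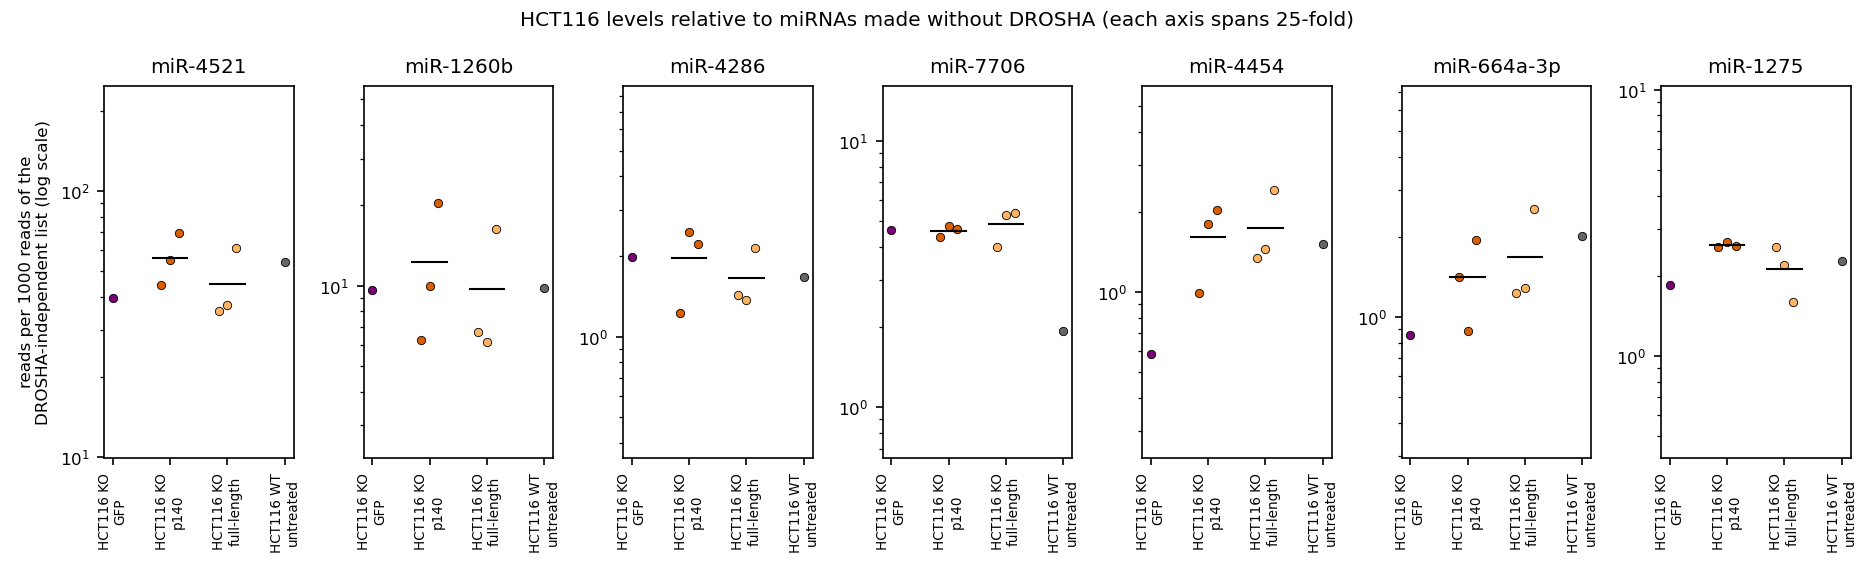
Reads of 7 of the miRNAs per 1000 reads of the DROSHA-independent list (y axis, log scale) in the HCT116 knockout with GFP, the p140 and full-length rescues and untreated wild type, with 1 point per library and a bar at the mean of 3. For miR-7706 all libraries of knockout origin lie above the wild-type library, and for miR-4521 the groups overlap.

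In wild-type HCT116 cells, which kept their own DROSHA, serum starvation gave the members different directions. miR-4521 was lower in 0.1% FBS, while miR-4286 and miR-664a-3p were higher. By edgeR's quasi-likelihood test with Benjamini-Hochberg adjustment over 577 miRNAs, miR-4521 had a log2 fold change of -1.89 ± 0.23 (SE, n = 3 each), adjusted p = 4.75e-04. It stayed called in all 14 alternative settings, between -2.56 and -1.72 and with a largest adjusted p of 0.0040. miR-4286 had 1.40 ± 0.24 by the same edgeR test, adjusted p = 0.0021, and was called in 13 of the 14. The exception was scaling to the DROSHA-independent list, with 0.73 and an adjusted p of 0.095.

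The rise of miR-664a-3p, 0.71 ± 0.21 with an edgeR adjusted p of 0.022, depended on the scaling and on single libraries. With library totals it was 0.30 (edgeR adjusted p = 0.25), scaled to the DROSHA-independent list 0.076 (edgeR adjusted p = 0.80), and in 1 fit of 18 libraries 0.53 (edgeR adjusted p = 0.17). It was 0.66 with an edgeR adjusted p of 0.072 without 9.1% FBS replicate 2, and 0.67 with 0.064 without 0.1% FBS replicate 2. The other arm, miR-664a-5p, had 1.38 ± 0.33, edgeR adjusted p = 0.0098, with 13, 17 and 15 reads in 0.1% FBS and 5, 8 and 5 reads in 9.1% FBS. miR-1275 had -0.59 ± 0.22 with an edgeR adjusted p of 0.058, although its groups did not overlap. With the replicate number as a block, miR-1275 had -0.59 and an edgeR adjusted p of 0.0089. It also passed the edgeR test without 9.1% FBS replicate 3 (-0.67, adjusted p = 0.044) and without 0.1% FBS replicate 1 (-0.77, adjusted p = 0.034). With library totals it had -0.99 (edgeR adjusted p = 0.0063) and scaled to the DROSHA-independent list -1.24 (edgeR adjusted p = 0.0047).

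miR-1260b had 0.44 ± 0.18 with an edgeR adjusted p of 0.075, and with the replicate block the same 0.44 with 9.34e-05. miR-7706 had 0.40 ± 0.23 (edgeR adjusted p = 0.19) and miR-4454 0.07 ± 0.35 (edgeR adjusted p = 0.88). The few reads of miR-1260a kept it out of the test, and with no filter on low counts it had 1.65 ± 0.50, edgeR adjusted p = 0.0075. Of the 7 members tested, 2 passed as higher and 1 as lower, where 25.5% of all miRNAs passed as higher and 20.3% as lower. Starved and fed libraries were apart in CPM for 3 of the 7, against 62.2% of all miRNAs tested. These shares are near the background and give no result about the members as a set.

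The DROSHA-independent list moved unevenly too. Of its 14 miRNAs tested, 7 passed as higher, among them miR-320a with 0.82 ± 0.17, and 3 as lower, such as miR-877-3p with -0.92 ± 0.22 and miR-1226-5p with -2.37 ± 0.35, by the same edgeR test. The median was 0.18 over the list and -0.03 over all 577. Among the 9 miRNAs that overlap snoRNA or snRNA genes, 4 were tested, of which miR-664a-5p and miR-664b-3p were higher and miR-1246, a fragment related to the U2 snRNA, was lower (-1.24 ± 0.31). Plain library totals in place of TMM moved the median of all miRNAs by -0.41, and 77.3% in place of 44.3% of the calls were then lower. The blood-cell miRNAs (6 markers) all had reads in both groups and summed to 187 to 210.5 CPM in 0.1% FBS, against 55.6 to 76.8 CPM in 9.1% FBS. Of these markers, miR-142-3p, miR-142-5p and miR-486-5p passed as higher in 0.1% FBS by edgeR. miR-150-5p went the other way, with -0.90 ± 0.37, and its groups did not overlap in CPM. It did not pass (edgeR adjusted p = 0.076). The part of the blood-cell markers in the result was not tested. In bulk libraries fewer cells with an RNA and less of it per cell cannot be told apart.

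**Figure D4:**
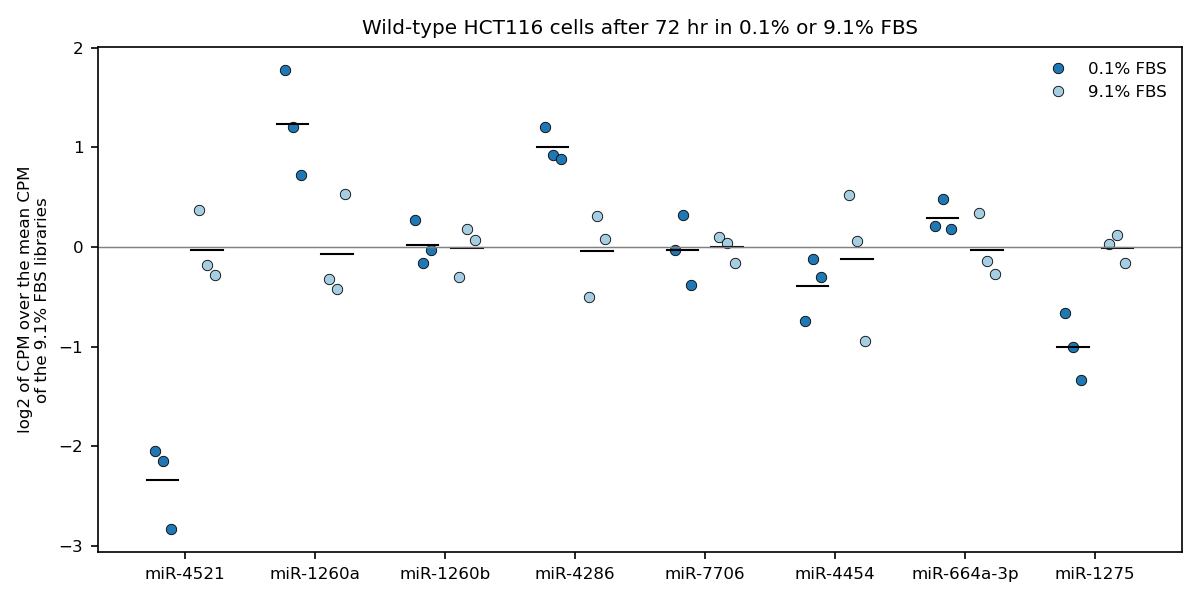
log2 of each library's CPM over the mean CPM of the 9.1% FBS libraries (y axis), for the 8 miRNAs in wild-type HCT116 cells after 72 hr, with 1 point per library and a bar at the mean of the points. miR-4521 lies far below 0 in all 3 libraries of 0.1% FBS and miR-4286 above 0, while miR-7706 and miR-4454 overlap.

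When both expressed full-length DROSHA, HEK293E cells carried more of each member than HCT116 cells, with miR-1260a set aside for its few reads. By edgeR's quasi-likelihood test with Benjamini-Hochberg adjustment over 517 miRNAs (n = 3 libraries each), the largest log2 fold changes were 3.86 ± 0.28 for miR-4286 (adjusted p = 2.26e-06) and 3.26 ± 0.20 for miR-1260b (8.15e-07). The values were 2.83 ± 0.39 for miR-1260a, 2.30 ± 0.26 for miR-664a-3p, 1.67 ± 0.13 for miR-4521, 1.46 ± 0.38 for miR-1275 and 1.32 ± 0.30 for miR-4454, with edgeR adjusted p between 4.24e-06 and 0.0079. The smallest was miR-7706, with 0.83 ± 0.28 and an edgeR adjusted p of 0.027. All members other than miR-1260a passed as higher, against 33.7% of the miRNAs tested, and 0 as lower, against 30.4%, by DESeq2 as by edgeR. For these members the lines were also apart in CPM, against 77.4% of the miRNAs tested. The value of miR-1260a rests on 3 to 7 reads per HCT116 library. miR-1260a reached the count filter only through the HEK293E libraries, where it is high, and no conclusion is drawn from its call.

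miR-7706 missed the threshold when HCT116 full-length replicate 1 was left out (0.72, edgeR adjusted p = 0.088), likewise without HCT116 replicate 3 (0.57, edgeR adjusted p = 0.077) or HEK293E replicate 2 (0.65, edgeR adjusted p = 0.062). On the scale of the DROSHA-independent list miR-7706 (0.49, edgeR adjusted p = 0.33) and miR-4454 (0.93, edgeR adjusted p = 0.084) also missed it. The other 6, miR-1260a among them, passed. The median of the members, miR-1260a included, was 1.99, and that of the 17 tested miRNAs of the DROSHA-independent list -0.22, with 6 higher and 4 lower. Library totals moved the median of all miRNAs by 1.06 relative to TMM, and ratios of the CPM values given above exceed these fold changes. The full-length libraries are also the reference of the p140 contrast that chose the members. The low level of miR-200c-3p and miR-141-3p in the rescued HCT116 cells holds here too. Its part in the result was not tested.

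With p140 in both lines, and miR-1260a set aside, the lines were apart in CPM for every member but miR-4454. The share over all miRNAs tested was 71.3%. By edgeR, miR-1260b, miR-4286 and miR-664a-3p passed as higher in HEK293E and 0 members as lower. Of the 422 miRNAs tested, 25.8% passed as higher and 29.4% as lower. DESeq2 also called 0 as lower, and 0 were lower at an unadjusted edgeR p under 0.05. The edgeR values were 2.06 ± 0.37 for miR-4286 (adjusted p = 7.62e-04), 1.59 ± 0.19 for miR-1260b (5.40e-05) and 1.11 ± 0.34 for miR-664a-3p (0.017), n = 3 libraries each. miR-1260a had 3.01 ± 0.46 (edgeR adjusted p = 2.38e-04). miR-664a-3p missed the edgeR threshold without HCT116 p140 replicate 2 (1.05, adjusted p = 0.053). miR-1260b, miR-4286 and miR-664a-3p were thus higher in HEK293E with either form of DROSHA. miR-1260a, which shares the seed of miR-1260b, had only 2 to 3 reads per HCT116 p140 library. It reached the count filter only through the HEK293E libraries, and no conclusion is drawn from its call.

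miR-4521 had 0.73 ± 0.36 by edgeR (adjusted p = 0.11), with no overlap of the lines in CPM. It passed the edgeR test without HCT116 p140 replicate 1 (0.95, adjusted p = 0.033) and without HEK293E p140 replicate 3 (1.07, adjusted p = 0.027), and in 8 of the 14 alternatives. miR-1275 had 0.27 ± 0.44 (edgeR adjusted p = 0.61), miR-4454 -0.15 ± 0.38 (edgeR adjusted p = 0.75) and miR-7706 -0.35 ± 0.38 (edgeR adjusted p = 0.45). Without HCT116 p140 replicate 3, which had the lowest CPM of miR-7706 in its group, miR-7706 passed as lower (-0.64, edgeR adjusted p = 0.0094). With plain library totals miR-7706 and miR-4454 turned to 0.62 and 0.81, with the median of all miRNAs moved by 0.94. With these totals miR-4521 (1.71, edgeR adjusted p = 9.36e-04) and miR-1275 (1.23, edgeR adjusted p = 0.017) passed as well, so that 6 members, miR-1260a included, passed as higher. Of the 18 tested miRNAs of the DROSHA-independent list 10 passed as lower, and their median was -1.13.

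Knockout HCT116 cells rescued with full-length DROSHA had more of most members than wild-type HCT116 cells in 9.1% FBS. By edgeR over 566 miRNAs (n = 3 libraries each), miR-7706 had the largest difference with 3.39 ± 0.25 (adjusted p = 2.62e-06). It was followed by miR-4454 with 2.04 ± 0.32, miR-4286 with 1.75 ± 0.26, miR-1275 with 1.61 ± 0.35 and miR-664a-3p with 1.19 ± 0.23, at edgeR adjusted p between 2.5e-04 and 0.0027. miR-1260b had 0.58 ± 0.20 (edgeR adjusted p = 0.030). miR-4521 did not pass, with 0.20 ± 0.18 (edgeR adjusted p = 0.35) and overlapping groups. Of the 7 members tested, all above 0, 6 passed as higher and 0 as lower by edgeR and by DESeq2, against 28.8% and 29.7% of all miRNAs tested. For 6 of the 7 the groups were apart in CPM, against 64.7%.

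The call of miR-1260b was lost in edgeR fits without full-length replicate 1 (adjusted p = 0.057) or 3 (0.095) and without 9.1% FBS replicate 1 (0.14) or 2 (0.059). It was also lost with no filter on low counts (0.45, edgeR adjusted p = 0.11) and in 1 fit of 18 libraries (0.33, edgeR adjusted p = 0.18). All 19 tested miRNAs of the DROSHA-independent list passed as higher too, with a median of 2.06. Scaled to that list, which moved the median of all miRNAs by -1.94, miR-7706 still passed as higher with 1.39 (edgeR adjusted p = 0.0025), while miR-4521 (-1.71, edgeR adjusted p = 9.33e-04) and miR-1260b (-1.30, edgeR adjusted p = 0.023) passed as lower. The experiment, the knockout and the rescue cannot be told apart in this comparison. Its full-length libraries are shared with the p140 contrast and with the comparison of the lines.

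Likeness of pattern was measured over the 8 group means, among miRNAs with a mean of at least 100 CPM, as the root-mean-square difference of centred log2(CPM + 1) between a member and each of the 264 others. miR-1275 was nearest to miR-4521 (0.43, where the median of all others was 2.92), followed by miR-1268b and miR-6511a-3p. miR-1260b lay nearest to miR-5100 (0.33), and then to the members miR-664a-3p and miR-4286. The nearest to miR-7706 were the mirtron miR-1226-3p (0.48), miR-877-5p (0.53), which also comes from a mirtron, and miR-3620-3p (0.54). The nearest to miR-4454 was miR-1275 (0.43) and to miR-664a-3p it was miR-5100 (0.41). miR-4286 lay nearest to miR-1260b (0.50), and miR-1275 to miR-4521. miR-1260a was below the level required. These group means include the libraries that chose the members.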

How the data were processed

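Small RNA of 20 libraries was sequenced on a MiSeq after gel size selection and ligation of randomized adaptors, per the labels' protocols. The tools named in the submitters' processing notes are cutadapt, STAR and bedtools, with hg38 as the genome. No tool version or annotation release is given in the sources used here. Each deposited table lists raw counts of reads for every mature miRNA of every hairpin, which the authors did not normalize. Of 2588 mature miRNAs, 167 were listed under several hairpins, and the copy with the highest total was kept. Members and lists were chosen with earlier results of these data known. All members were named, others only from the lists or as nearest patterns.

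Tests used the quasi-likelihood F test of edgeR 4.0.16 under R 4.3.3 (two-sided, TMM, filterByExpr minimum count 10, Benjamini-Hochberg over all miRNAs tested, threshold 0.05), in separate fits of 6 libraries. The procedure was tested on simulated data with independent libraries and the same fixed spread for every miRNA. Those data held no replicate that stands apart, so the test does not cover that case. Alternatives were DESeq2 1.42.0, no filter, scaling to library totals or to the DROSHA-independent list, a replicate block, 1 fit of 18 libraries, summed copies, each library left out in turn and, chosen after seeing the data, both replicates numbered 3 left out. Ratios of single libraries have exact 95% intervals. Genes were placed with GENCODE 29 and RefSeq GRCh38.p14. Of the 2281 miRNA names shared with RefSeq, 99.167% had the same coordinates.

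Same-numbered libraries had positive correlations of their deviations in the serum comparison (0.263, 0.15 and 0.67), in the rescue against wild type and in both p140 contrasts. However, replicates 1 and 2 also correlated across numbers, with 0.476 and 0.261 in serum and 0.37 and 0.297 in the HCT116 p140 contrast. Pairing by number is thus not shown in the serum, rescue and HCT116 p140 comparisons, where replicate 3 stood apart. In the HEK293E p140 contrast same-numbered libraries had 0.565, 0.346 and 0.373, and the highest value across numbers was 0.151. The main fit of that contrast used no block. The lines did not pair (such as -0.15 and -0.285 for the replicates numbered 1).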

Additional observations from a re-analysis of the deposited data

How the results depend on the processing

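DESeq2 and summed copies changed no direction and no call of a member. Summed copies did lower the share of reads in the 8 miRNAs, such as to 1.95% in HEK293E and 0.239% in HCT116 with full-length DROSHA. In wild-type HCT116 cells the share was then 0.165% in 9.1% FBS and 0.0598% in 0.1% FBS. With the replicate block, the members lower in 0.1% FBS became 2 in place of 1, the miRNAs higher with p140 in HEK293E 70 in place of 22, and in 0.1% FBS 192 miRNAs passed as higher and 175 as lower. Among the tests of single members, the block changed the calls of miR-1260b and miR-1275 in serum and of miR-4521 between the lines with p140 (edgeR adjusted p = 0.011), and no other. The numbers do not pair the libraries of the lines, and pairing by number is not shown in serum. In the HEK293E p140 contrast same-numbered libraries correlated more than the others. With no filter, 4 members were higher in 0.1% FBS and miR-4454 was 0.074 between lines with p140. With library totals, 73 miRNAs and 1 member were higher and 248 and 2 lower in 0.1% FBS, with miR-7706 at -0.006 and miR-4454 at -0.34. Between lines, totals gave 315 higher and 76 lower with full-length, and 215 and 75 with p140, with miR-7706 at 0.62 and miR-4454 at 0.81. Scaling to the DROSHA-independent list gave 22 miRNAs higher and 239 lower, and 0 members higher and 2 lower, in 0.1% FBS, with miR-1260b at -0.23, miR-7706 at -0.27 and miR-4454 at -0.53. It gave 110 higher between lines with full-length, 55 lower with p140 (miR-7706 0.49, miR-4454 0.55), and 18 higher and 436 lower in the rescue, with 1 member higher and 2 lower. Reversed there were miR-4521 (-1.71), miR-1260b (-1.30), miR-4286 (-0.24), miR-664a-3p (-0.70) and miR-1275 (-0.48). In the p140 contrasts it reversed miR-7706 (-0.083), miR-4454 (-0.11) and miR-664a-3p (-0.25) in HCT116, and miR-1260a (-0.28), miR-1260b (-0.29), miR-4286 (-0.38), miR-7706 (-0.076), miR-4454 (-0.47) and miR-664a-3p (-0.31) in HEK293E. In the knockout with GFP against wild type it reversed miR-4521 (-0.44), miR-1260b (-0.019), miR-4454 (-1.38), miR-664a-3p (-1.24) and miR-1275 (-0.30). A single fit of 18 libraries gave 78 higher in 0.1% FBS (miR-4454 -0.11), 174 higher between lines with p140, and miR-4521 at -0.044 in the rescue. Leaving out both replicates numbered 3, an alternative chosen after seeing the data, gave miR-4454 -0.23 in serum and 1 member, miR-7706, lower between lines with p140. Leaving out each library in turn gave 1 to 2 members higher and 1 to 2 lower in 0.1% FBS, and 0 to 1 lower between lines with p140. It gave miR-4454 between -0.25 (without 9.1% FBS replicate 3) and 0.36 in serum. Between lines with p140 it gave miR-4454 between -0.35 and 0.30, above 0 without HCT116 replicate 2 or HEK293E replicate 1, and miR-1275 between -0.038 and 0.62, below 0 without HCT116 replicate 3 or HEK293E replicate 2. The cause of these changes was not tested. Depth limits miR-1260a in HCT116 and every ratio to the 38288 reads of the knockout with GFP.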
